A study of Mus musculus with 4 samples.

Results

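The 8 genes described here are the DLX genes Dlx1, Dlx2, Dlx3, Dlx4, Dlx5 and Dlx6 and the GSX genes Gsx1 and Gsx2, of 21853 protein-coding genes in the mouse annotation used. The rule that picks them is family membership and uses no measured value, but the choice was made with earlier results of these data known. Each gene was given the region of its body and 50 kb on either side, and every deposited Foxr2-V5 peak overlapping such a region was taken. The regions form 5 loci that cover 568 kb, or 0.0208% of the assembled chromosomes. They hold 15 of the 31909 peaks of Foxr2 p53LOF replicate 1 and 19 of the 38580 peaks of replicate 2.

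The peaks come from CUT&RUN, in which a nuclease tethered by an antibody cuts free the DNA next to the protein of interest, here Foxr2 carrying a C-terminal V5 tag. The Foxr2 p53LOF samples (n = 2) are replicates of a neurosphere line grown from a C57BL/6J tumour that was induced by in utero electroporation of the embryonic ganglionic eminences with FOXR2-V5, driven by the broadly active CAG promoter from a piggyBac vector, and with a CRISPR vector against Trp53. The V5 control samples (n = 2) come from a separate electroporation model in the same strain, with the genotype label H3.3G34R, whose cells lack the tag. The cells of all 4 samples were cross-linked with 0.1% formaldehyde for 1 minute. The control differs from the Foxr2 p53LOF line in its oncogenic alleles as well as in the tag, and these differences cannot be told apart. The Foxr2 p53LOF replicates share 1 line, the number of control lines is not clear from the sources used here, and none says whether replicates were separate cultures, so their spread may be technical.

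DLX and GSX proteins are homeodomain transcription factors. Gsx2 and Gsx1 act early in progenitors of the ganglionic eminences, the ventral telencephalon from which GABAergic interneurons arise, and lie upstream of the DLX genes there. Dlx1 and Dlx2 are turned on in those progenitors, and Dlx5 and Dlx6 follow as the cells differentiate and migrate, while Dlx3 and Dlx4 are known mainly for roles in skin, placenta, teeth and bone. The DLX genes lie in convergently transcribed pairs, and the stretch between the genes of the Dlx1-Dlx2 and Dlx5-Dlx6 pairs holds enhancers that drive them in the forebrain.

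A stretch is called shared where peaks of both Foxr2 p53LOF replicates cover the same bases, by at least 1 bp. The fold of a peak is the deposited enrichment at its summit, (fragments + 1) divided by (background + 1). With backgrounds of 1.26 and 2.04 fragments, the lowest fold in the lists was 3.09 (6 fragments) in replicate 1 and 2.96 (8 fragments) in replicate 2. Intervals of folds are exact Poisson 95% intervals of the summit fragments and cover counting error only.

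Shared stretches whose replicate summits lay within 60 bp of each other and outside any UTR are shown first, as far as they are reported here, since these place the signal most narrowly. Each is the 200 bases around the midpoint of the summits, on the + strand of GRCm38 (mm10), and capitals mark a match to a searched motif. They lie upstream of Dlx2 (chr2:71547540-71547739), upstream of Dlx6 (chr6:6862696-6862895), in an intron of Chic2 before Gsx2 (chr5:75043480-75043679) and between Chic2 and Gsx2 (chr5:75070897-75071096).
Dlx2 upstream: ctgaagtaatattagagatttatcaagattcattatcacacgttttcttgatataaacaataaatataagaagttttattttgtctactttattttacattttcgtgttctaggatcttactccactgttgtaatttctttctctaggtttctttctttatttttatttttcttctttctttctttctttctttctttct
Dlx6 upstream: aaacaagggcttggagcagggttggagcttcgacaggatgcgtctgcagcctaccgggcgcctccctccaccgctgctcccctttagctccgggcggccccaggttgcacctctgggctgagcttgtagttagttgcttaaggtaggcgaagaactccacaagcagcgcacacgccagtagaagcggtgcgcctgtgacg
Gsx2 distal, Chic2 intron: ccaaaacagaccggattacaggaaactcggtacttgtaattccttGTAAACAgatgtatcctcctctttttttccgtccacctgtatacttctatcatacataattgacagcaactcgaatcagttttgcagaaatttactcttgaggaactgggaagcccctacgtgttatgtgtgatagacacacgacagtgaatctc
Gsx2 upstream: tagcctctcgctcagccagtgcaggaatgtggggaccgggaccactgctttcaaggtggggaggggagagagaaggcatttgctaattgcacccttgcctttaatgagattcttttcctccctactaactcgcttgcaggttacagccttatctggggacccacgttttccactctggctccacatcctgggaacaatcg

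These windows were unlike each other in composition. The Dlx2 window had a GC content of 24.5% and ended in TTTC repeats, the Chic2 intron window had 41%, the Gsx2 upstream window had 53.5%, and the Dlx6 window had 62%. The Chic2 intron window held TGTTTAC, a forkhead sequence, on the opposite strand. The Dlx2, Dlx6 and Gsx2 upstream windows held none of the 8 motifs searched.

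The promoters of Gsx1 and Gsx2 are shown for contrast, because the Gsx1 promoter carried the only stretch at these genes that passed the filter in the methods, and the Gsx2 promoter carried no peak. Each is the 250 bases before the start on the + strand, from RefSeq on GRCm38 (chr5:147188446-147188695 and chr5:75075351-75075600). RefSeq promoters were matched for 4 of the 8 genes (Dlx1, Dlx2, Gsx1 and Gsx2).
Gsx1 promoter: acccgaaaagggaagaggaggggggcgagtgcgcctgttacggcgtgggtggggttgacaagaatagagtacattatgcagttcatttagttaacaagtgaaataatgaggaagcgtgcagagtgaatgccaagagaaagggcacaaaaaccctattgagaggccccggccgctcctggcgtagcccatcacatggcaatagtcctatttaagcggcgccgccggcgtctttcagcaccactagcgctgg
Gsx2 promoter: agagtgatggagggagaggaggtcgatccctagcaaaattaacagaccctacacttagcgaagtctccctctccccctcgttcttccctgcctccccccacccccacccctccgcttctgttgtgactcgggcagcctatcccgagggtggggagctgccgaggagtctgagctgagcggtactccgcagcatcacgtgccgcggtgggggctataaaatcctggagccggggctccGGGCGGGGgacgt
The GC content was 54% in the Gsx1 promoter and 63.6% in the Gsx2 promoter. The capitals in the Gsx2 promoter are GGGCGGGG, the SP/KLF box, which 16.1% of 32851 RefSeq promoters of this length held on either strand. No other searched motif occurred in the 4 promoters.

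**Figure D1:**
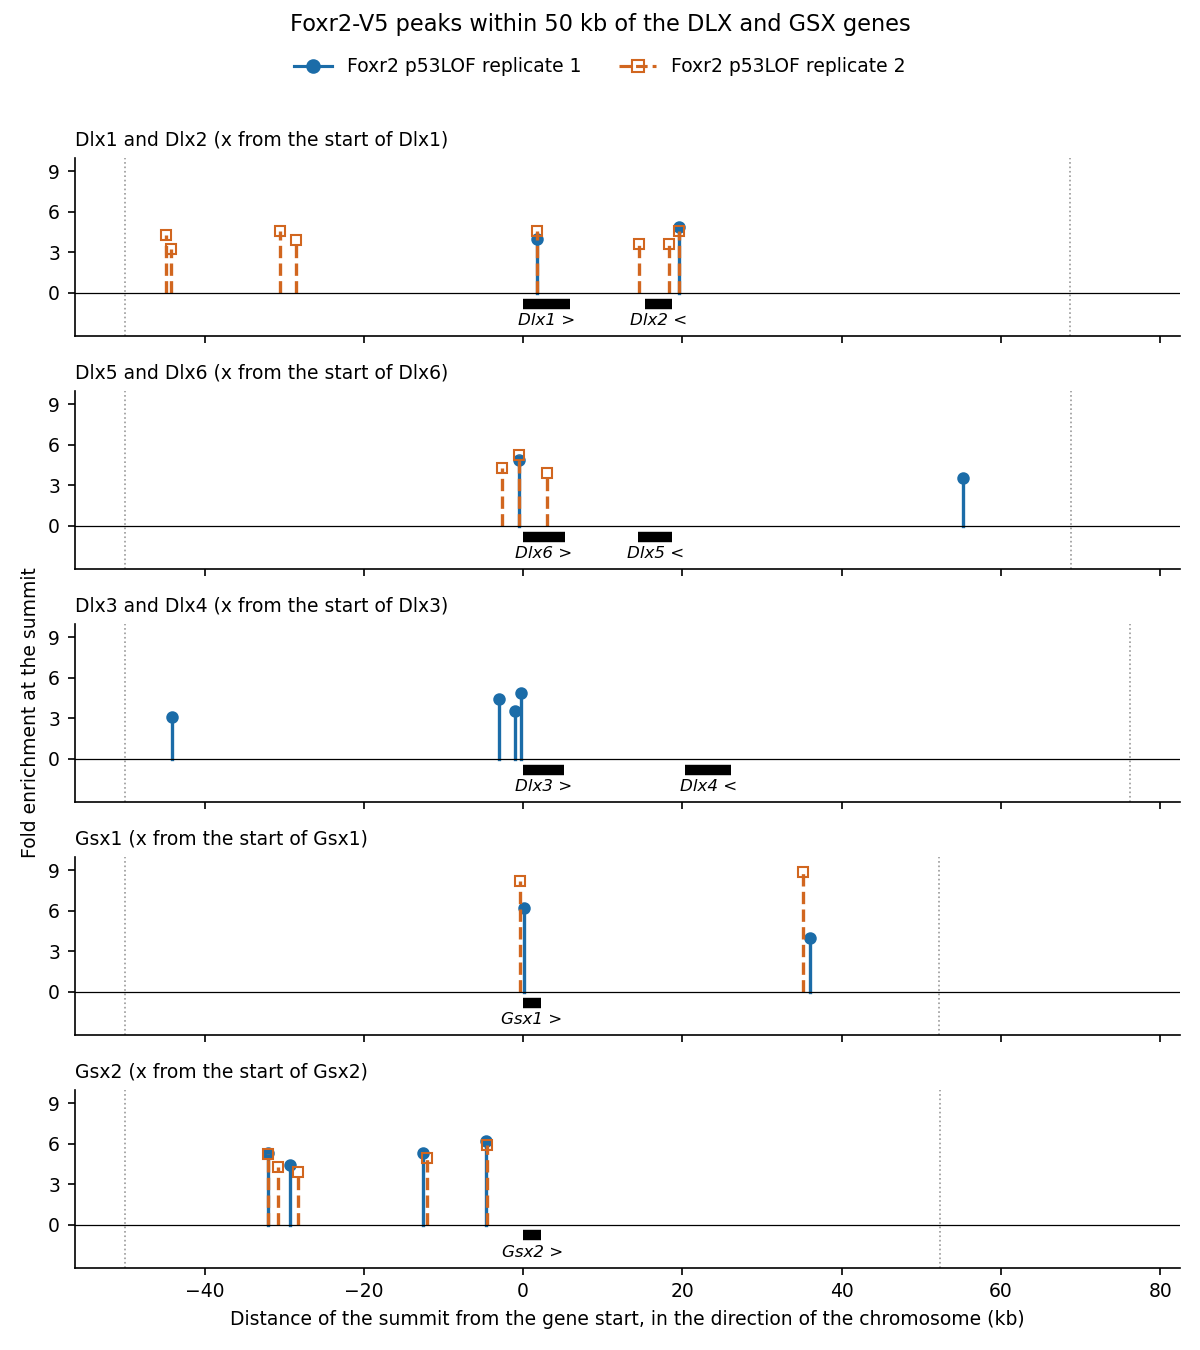
Foxr2-V5 peaks at the 5 loci, without 1 shared stretch that is not reported singly. The x axis gives the distance of the summit from the start of the named gene in kb along the chromosome, the y axis the fold enrichment, filled circles and solid lines are replicate 1, open squares and dashed lines replicate 2, black bars the genes with an arrow for their direction, and dotted lines the ends of the regions. Summits of both replicates lie within 60 bp of each other at Dlx1, upstream of Dlx2, at Dlx6 and at 2 of the Gsx2 stretches, and the Dlx3-Dlx4 locus has peaks of replicate 1 alone.

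Peaks within 50 kb were found in replicate 1 at 8 of 8 genes (77.5% of all protein-coding genes) and in replicate 2 at 6 of 8 (78.0%). A shared stretch lay within 50 kb of 6 of 8 genes (75%), against 74.6% of all genes, the exceptions being Dlx3 and Dlx4. Within 10 kb it was 5 of 8, against 62.5%. These shares were near those of all genes, but the count depended on the overlap asked for: where it had to span at least 50% of both peaks, 2 of 8 genes (Gsx1 and Gsx2) had a shared stretch, against 71.1% of all genes. The 12 shared stretches join 10 peaks of replicate 1 with 12 of replicate 2, because single replicate 1 peaks at Dlx2 and at Chic2 each overlapped 2 replicate 2 peaks.

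At the Dlx1-Dlx2 locus on chromosome 2, both replicates had peaks in the 5′ UTR of Dlx1 and near the start of Dlx2, which itself only the replicate 1 peak covered. The stretch in the Dlx1 5′ UTR (chr2:71529779-71530078), which also lies in an intron of the antisense transcript Dlx1as, had a fold of 3.98 (1.97 to 7.41, 8 fragments) in replicate 1. Its fold in replicate 2 was 4.60 (2.60 to 7.63, 13 fragments), and the summits were 4 bp apart. They lay 819 and 815 bp from the nearest protein-coding transcript start of Dlx1. The stretch upstream of Dlx2 (chr2:71547458-71547787) had a fold of 4.86 (10 fragments) in replicate 1 and 4.60 (13 fragments) in replicate 2, at summits 874 and 898 bp before the Dlx2 start. The same replicate 1 peak also reached a second replicate 2 peak in the Dlx2 5′ UTR (chr2:71546361-71546578), of fold 3.61 and with its summit 348 bp after the start.

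Replicate 2 held 5 further peaks at this locus that replicate 1 lacked. Of these, 4 lay in introns of Metap1d, the gene before Dlx1, at folds of 4.27, 3.29, 4.60 and 3.94. The fifth (chr2:71542672-71543016, fold 3.61) lay in the 9426 bp between Dlx1 and Dlx2. It was the only peak of any library in the intergenic stretches of the DLX pairs, since the 9236 bp between Dlx6 and Dlx5 and the 15150 bp between Dlx3 and Dlx4 held none.

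At the Dlx5-Dlx6 locus on chromosome 6, 1 stretch was shared, just upstream of Dlx6 and in an intron of the noncoding transcript Dlx6os1 (chr6:6862498-6863513). Its fold was 4.86 (2.56 to 8.57, 10 fragments) in replicate 1 and 5.26 (3.09 to 8.46, 15 fragments) in replicate 2. The summits lay 533 and 542 bp before the Dlx6 start, 9 bp apart. This stretch is the one counted for Dlx5 too, whose own start was 19267 and 15760 bp from the nearest summit of replicates 1 and 2. Replicate 2 had 2 more peaks, in introns of Dlx6os1 (fold 4.27) and of Dlx6 (fold 3.94), and replicate 1 had 1 more (fold 3.53), 36429 bp before the Dlx5 start.

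At the Dlx3-Dlx4 locus on chromosome 11 the replicates differed. Replicate 1 had 4 peaks, with folds of 4.86 (2.56 to 8.57) at 284 bp, 3.53 (1.69 to 6.81) at 1001 bp and 4.42 (9 fragments) at 3069 bp before the Dlx3 start, and of 3.09 (1.41 to 6.21) in an intron of Itga3, a neighbouring integrin gene. Replicate 2 had none in the locus. Of the 4 peaks, 3 also lie within 50 kb of Dlx4. These 4 peaks were weak, and of the 14656 replicate 1 peaks in their range of folds, 50.6% overlapped a replicate 2 peak. Over the whole chromosome replicate 2 had 30.1 peaks per Mb and replicate 1 had 24.1, where the genome had 14.2 and 11.7. This does not measure coverage at the locus, and the part of local coverage in the difference between the replicates was not tested. The nearest replicate 2 peaks lay 78883 bp before Dlx3, at Pdk2 (fold 10.8), and 112779 bp after Dlx4, closest to Tac4 (fold 18.7), both genes looked at after the gap was seen.

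Gsx1, on chromosome 5, carried the peaks with the highest folds of the 8 genes in replicate 2, and in replicate 1 its highest fold equalled that of Gsx2. The stretch over its promoter (chr5:147186446-147189039) had a fold of 6.19 (3.50 to 10.3, 13 fragments) in replicate 1 and 8.21 (5.38 to 12.1, 24 fragments) in replicate 2. Its summit was 155 bp past the start, within the 5′ UTR, in replicate 1 and 371 bp before the start in replicate 2. The stretch after the gene (chr5:147223808-147225242) had a fold of 3.98 (1.97 to 7.41, 8 fragments) in replicate 1 and 8.87 (5.91 to 12.8, 26 fragments) in replicate 2, with summits 877 bp apart. This was the widest gap between replicates among the 12 stretches, 2.23 times, and the intervals still overlapped.

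Gsx2 lies on the same chromosome and had 5 shared stretches, all of them upstream and none at its promoter. The nearest (chr5:75070755-75071879) had a fold of 6.19 (3.50 to 10.3, 13 fragments) in replicate 1 and 5.91 (3.58 to 9.27, 17 fragments) in replicate 2, at summits 4632 and 4576 bp before the start. The next (chr5:75062799-75063600) had folds of 5.30 and 4.93, at 12558 and 12020 bp. The other 3 lay at or just before Chic2, the neighbouring gene, whose transcription starts between it and Gsx2. In the Chic2 intron (chr5:75043419-75044336) the folds were 5.30 and 5.26, and by the Chic2 start (chr5:75044739-75044860) the replicate 2 fold was 4.27 with its summit 34 bp from that start. The last of them (chr5:75047034-75047478) had folds of 4.42 and 3.94.

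**Figure D2:**
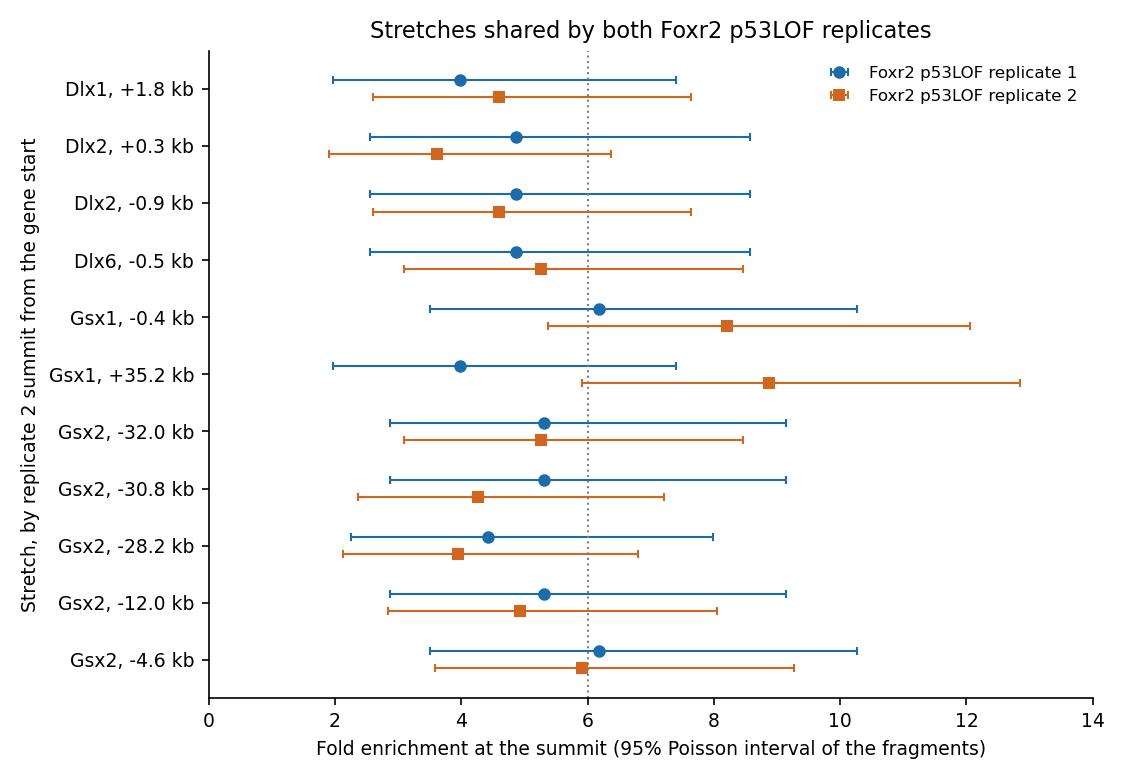
Fold enrichment in each replicate of the shared stretches reported singly. The x axis gives the fold at the summit with its 95% Poisson interval, each row a stretch named by its nearest gene and the replicate 2 summit, circles replicate 1, squares replicate 2, and the dotted line a fold of 6. The intervals of the replicates overlap in every stretch shown.

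The intervals of the replicate folds overlapped in 12 of 12 shared stretches, and at 8 to 26 fragments per summit these intervals are wide. The median ratio of the replicate 2 to the replicate 1 fold was 0.974 at the 12 stretches, with 7 higher in replicate 1 and 5 in replicate 2, against 1.14 over all 24807 shared stretches, of which 68.3% were higher in replicate 2. Summits lay within 60 bp of each other at 6 of the 12 stretches (29.4% of all) and more than 500 bp apart at the other 6 (23.7% of all). These limits fit the distances of the same 12 stretches, so the shares beside them are not an even comparison. The wide gaps include the second pairings of the replicate 1 peaks at Dlx2 and at Chic2. The median distance was 293 bp, against 188 bp over all stretches. With 2 replicates these counts are descriptions without a test.

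The signal at the DLX and GSX genes was low on the scale of these libraries. Their folds ran from 3.09 to 6.19 in replicate 1 (median 4.86, against 5.30 over its list) and from 3.29 to 8.87 in replicate 2 (median 4.60, against 4.93). In replicate 1, 10 of 15 peaks were below the median fold of the list, and in replicate 2, 12 of 19. The medians of single chromosomes in replicates 1 and 2 were 5.30 and 5.59 on chromosome 2, 6.19 and 5.59 on chromosome 5, and 5.30 and 4.93 on chromosome 11. On chromosome 6 they were 4.86 and 4.60, and the stretch upstream of Dlx6, at 4.86 and 5.26, was not below them. Taking the lower of the 2 folds at each shared stretch, the median was 4.73 at these genes and 5.91 over all stretches, and the highest value, 6.19 at the Gsx1 promoter, stood at the 54.5th percentile.

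**Figure D3:**
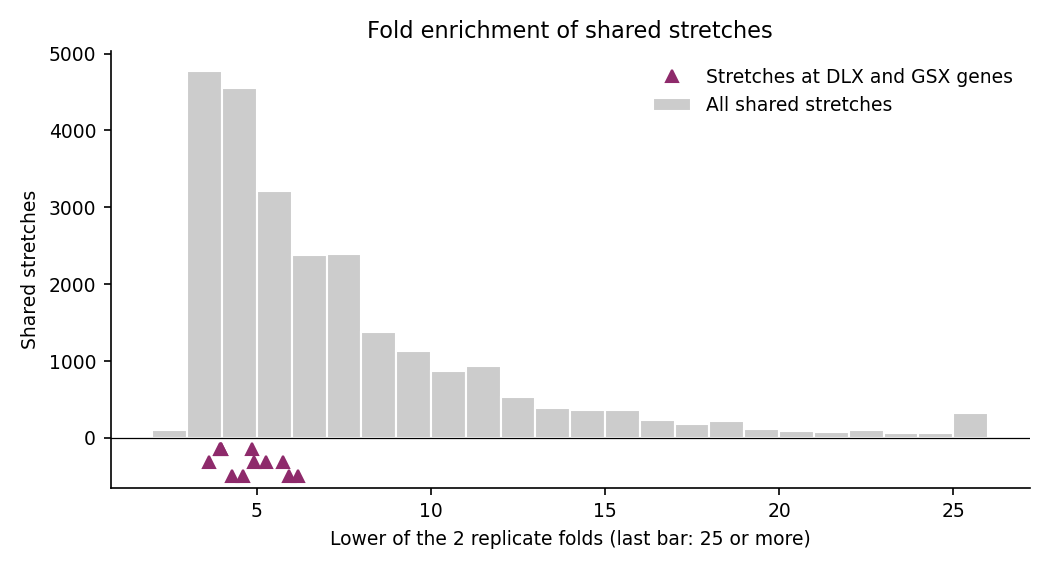
Lower of the 2 replicate folds at all 24807 shared stretches (grey bars, number of stretches per unit of fold) and at the 12 stretches of the DLX and GSX genes (triangles, whose height has no meaning). The triangles lie between 3.61 and 6.19.

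The highest fold per gene was low too, but the genes of a DLX pair share peaks, so these values describe 5 loci. A longer gene region has more room for a high peak, and the part of region length was not tested. The highest fold in a gene's region, over all protein-coding genes with a peak there, had a median of 11.5 in replicate 1 and 13.1 in replicate 2. For Dlx1 and Dlx2 it was 4.86 and 4.60, at the 7.87th and 5.50th percentiles of those genes. For Dlx5 and Dlx6 it was 4.86 and 5.26 (7.87th and 8.52nd percentiles), and for Dlx3 and Dlx4 it was 4.86 in replicate 1 (7.87th percentile). Gsx2 had 6.19 and 5.91 (15.7th and 11.5th), and Gsx1 had 6.19 and 8.87 (15.7th and 27.3rd).

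The first steps of the filter in the methods keep peaks with a −log10 q above 6, a fold above 6 and a length under 10000 bp that do not overlap a control peak by 10 bp or more. A later step, which keeps bases also found in accessible chromatin, was not applied here, so the filtered counts are not those of the final peak set. Of the peaks at the DLX and GSX genes, 2 of 15 in replicate 1 passed this filter (42.1% of its list), as did 3 of 19 in replicate 2 (38.5%). Only Gsx1 kept a shared stretch, the one over its promoter, so 1 of 8 genes (12.5%) had a filtered stretch against 64.7% of all protein-coding genes. At the nearest Gsx2 stretch the replicate 1 peak passed and the replicate 2 peak, at 5.91, fell just under the fold of 6. The stretch after Gsx1 had a replicate 2 peak above a fold of 6, and its replicate 1 peak, at 3.98, was below it.

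The 50 kb limit fell close to some peaks. Counted by locus, the peak in Metap1d 44856 bp before the Dlx1 start (replicate 2, fold 4.27) lay near the inner side of the limit. Counted by gene, the replicate 1 peak before Dlx5 (fold 3.53) straddled the end of the Dlx6 region. Just outside lay a replicate 2 peak 51.8 kb from Dlx2 (fold 3.94) and a pair of overlapping peaks 53.3 and 53.2 kb before Gsx1, of fold 6.19 in replicate 1 and 10.5 in replicate 2. The latter fold is above that of any peak inside the regions.

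At promoters, taken as 1 kb on either side of a protein-coding transcript start, 4 of 8 genes had a shared stretch (Dlx1, Dlx2, Dlx6 and Gsx1), against 51.1% of all genes. Dlx3 had a promoter peak in replicate 1 alone, and Dlx4, Dlx5 and Gsx2 had none in either replicate. The share of genes with such a stretch rose with promoter GC content, so the genes were also set beside those of like GC content. Over promoters in the range spanned by the 8 genes, 44.6% to 62.4%, it was 53.1%. Of the 4 genes with 55% to 60% GC (Dlx3, Dlx4, Dlx5 and Dlx6), Dlx6 alone had a shared promoter stretch, where 67.3% of all genes in that bin had one. Of the 3 with 60% to 65% GC, Dlx2 and Gsx1 had one and Gsx2 did not, where the share was 78.4%. Dlx1, at 44.6% around its annotated 5′ end, had one where the share was 14.3%, though its peak lay nearer to later starts than to that 5′ end.

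**Figure D4:**
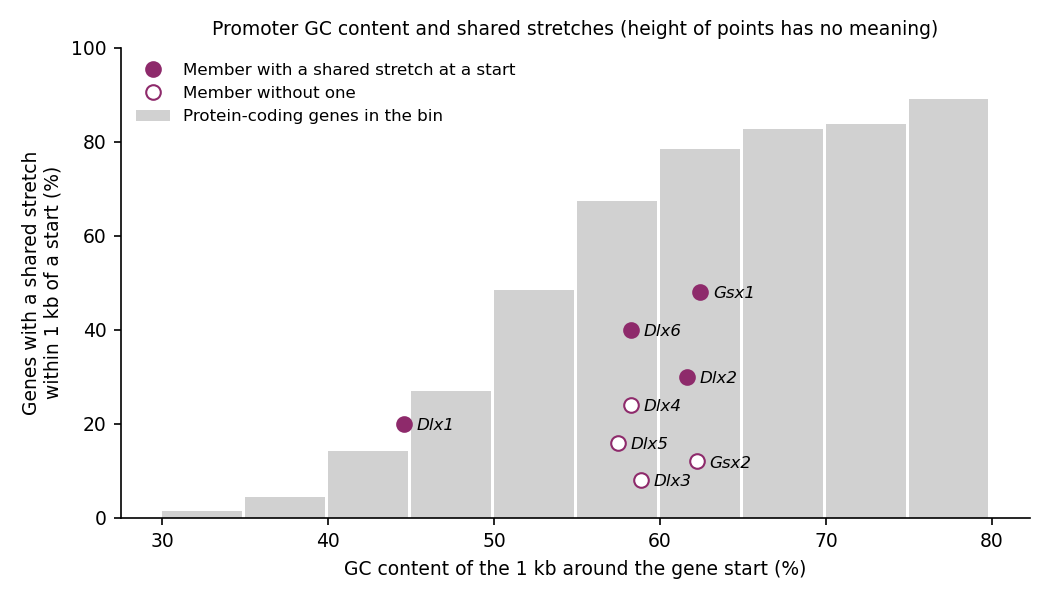
Share of protein-coding genes with a shared stretch within 1 kb of a start (y axis, percent, grey bars) in bins of 5 points of promoter GC content (x axis, percent), with the 8 genes at their GC content. Filled points have a shared promoter stretch and open points do not, and the height of a point has no meaning; the bars rise from 1.40% to 89.1%.

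No V5 control peak lay in the regions. Per library, the Foxr2 p53LOF replicates had 15 and 19 peaks there and the control replicates 0 and 0, so the groups did not overlap, with a mean difference of 17 peaks (SD of the Foxr2 p53LOF replicates 2.83, n = 2 in each group). The exact two-sided permutation test gave p = 0.333, the smallest p that 2 against 2 libraries allow. The control lists were short, 308 and 124 peaks, of which a count of 0 allows up to 0.974% and 2.42%, while the peaks of the regions made up 0.0470% and 0.0492% of the Foxr2 p53LOF lists, so a control signal of that share could not be detected. Of all protein-coding genes, 1.13% had a control peak within 50 kb, and the nearest to any of the 8 genes was 857033 bp from Dlx3. Peak density in the regions was 26.4 and 33.4 per Mb in the Foxr2 p53LOF replicates, against 11.7 and 14.2 per Mb over the genome. Against other gene regions the number was ordinary, with a median of 3 peaks per protein-coding gene in each replicate and 2 to 4 (replicate 1) and 0 to 8 (replicate 2) at the 8 genes.

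The peaks at the DLX and GSX genes were otherwise ordinary in length and composition. Their median length was 1016 bp in replicate 1 and 776 bp in replicate 2, against 934 and 922.5 bp over the lists. The median GC content of the 200 bases around the summit was 47.5% and 49%, against 49% and 47.5%. TAATTA, the homeodomain core, occurred in 1 of 15 and 2 of 19 summit windows of that length, against 4.58% and 4.95% of all windows. TGTTTAC occurred in 1 and 2 (2.52% and 2.69% of all), CATTGT, a SOX core, in 1 and 1 (8.94% and 9.59%), and the E-box CAGCTG in 1 and 1 (10.6% and 10.4%). GGGCGGGG occurred in 0 and 1 (4.11% and 3.47%), and the ETS sequence CCGGAAGT in none, where 0.518% and 0.472% of all windows held it. The NRF1 and YY1 motifs were absent too, and were held by 0.0816% and 0.195% of all windows in replicate 1. Motifs were searched on both strands.

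Genes known to act with, before or after the DLX and GSX proteins are described next by list, without a test, and some of their stretches had high folds but lay far from the gene they are counted for. Of 18 inputs and partners, 15 (83.3%) had a shared stretch within 50 kb and 11 (61.1%) kept one after the filter, against 74.6% and 64.7% of all protein-coding genes. Within 10 kb it was 14 (77.8%, against 62.5% of all genes), and at promoters 13 (72.2%, against 51.1%). The highest lower folds were in the regions of Notch1, a receptor that holds progenitors undifferentiated (23.9 in replicate 1 and 30.9 in replicate 2, 70931 bp from its start), of Hes5, a target of Notch signalling (16.3 and 17.4, at 3319 bp), and of Olig2, a factor of ventral progenitors (13.3 and 21.03, at 38024 bp). Nkx2-1, which sets medial ganglionic eminence identity, had 1 peak in replicate 1 and 0 in replicate 2.

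Of 19 transcription factors downstream, 17 (89.5%) had a shared stretch and 14 (73.7%) a filtered one, with 16 (84.2%) within 10 kb and 15 (78.9%) at promoters. The highest folds were in the regions of Npas1 (23.0 and 28.3), at 77662 bp from its start and with no shared stretch at its promoter, and of Sox6, a regulator of maturing interneurons (18.6 and 24.3), at 369137 bp from the gene start. The Nr2f1 stretch (17.7 and 16.4) lay 4030 bp before that factor of the caudal eminence. Of 18 GABA and migration genes downstream, 13 (72.2%) had a shared stretch and 11 (61.1%) a filtered one, with 9 (50%) within 10 kb and 7 (38.9%) at promoters. The highest folds were in the regions of Erbb4, a neuregulin receptor of migrating interneurons (17.2 and 22.3, at 16259 bp from its start), of Cdk5r1 (17.2 and 16.8, at 158 bp) and of the microtubule gene Map2 (14.1 and 13.8, at 145917 bp). Gad1 and Gad2, which make GABA, had shared stretches of low fold (4.86 and 4.60 for Gad1, 4.42 and 3.94 for Gad2), 43565 and 43871 bp from their starts, and none that passed the filter. Vip had no peak.

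The median over each list of the best lower fold was 8.39 for inputs and partners, 9.72 for the downstream transcription factors and 8.39 for the GABA and migration genes, against 4.86 for the DLX and GSX genes with a shared stretch and 11.05 over all protein-coding genes with one. Gene regions differ in length, and a long gene such as Sox6 (23 shared stretches) has more room for peaks than a short homeobox gene. Many of these stretches also lie far from the start, and the part of length and distance in these medians was not tested. Gad1, Gad2 and Nkx2-1 were picked from the lists after their values were seen.

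Peaks do not give RNA levels and RNA data were not used here, so the identity of the cells was not checked from expression markers. Of 9 transcription factors of the medial ganglionic eminence, 7 (77.8%) had a shared stretch and 6 (66.7%) a filtered one, with 4 (44.4%) within 10 kb and 4 at promoters. After Sox6, the highest folds were in the regions of Lhx6 (10.6 and 13.5, 31370 bp from its start) and Gbx1 (10.6 and 13.1, at 50034 bp), neither of which had a shared stretch within 10 kb. Of 12 transcription factors of the dorsal telencephalon, a region outside the electroporated eminences, 8 had a shared stretch and 4 a filtered one, with 5 (41.7%) within 10 kb and 5 at promoters, and Tbr1 and Fezf2 had no peak. The highest folds were in the regions of Neurod2 (10.2 and 12.8, 28447 bp from its start), Neurog1 (11.05 and 9.86, at 25666 bp) and Emx1 (7.95 and 9.20, at 50034 bp), of which Neurod2 and Emx1 had no shared stretch within 10 kb. The dorsal list had a median best lower fold of 5.89 and the medial list 8.21. Most genes of the medial list, such as Sox6 and Lhx6, and a gene of the dorsal list also stand in the lists above. The lists are therefore not independent. Every list lost a larger share of genes to the filter than all protein-coding genes did (74.6% to 64.7%). After the DLX and GSX genes the dorsal list lost the most (66.7% to 33.3%), and the medial list went from 77.8% to 66.7%. These differences were not tested.

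**Figure D5:**
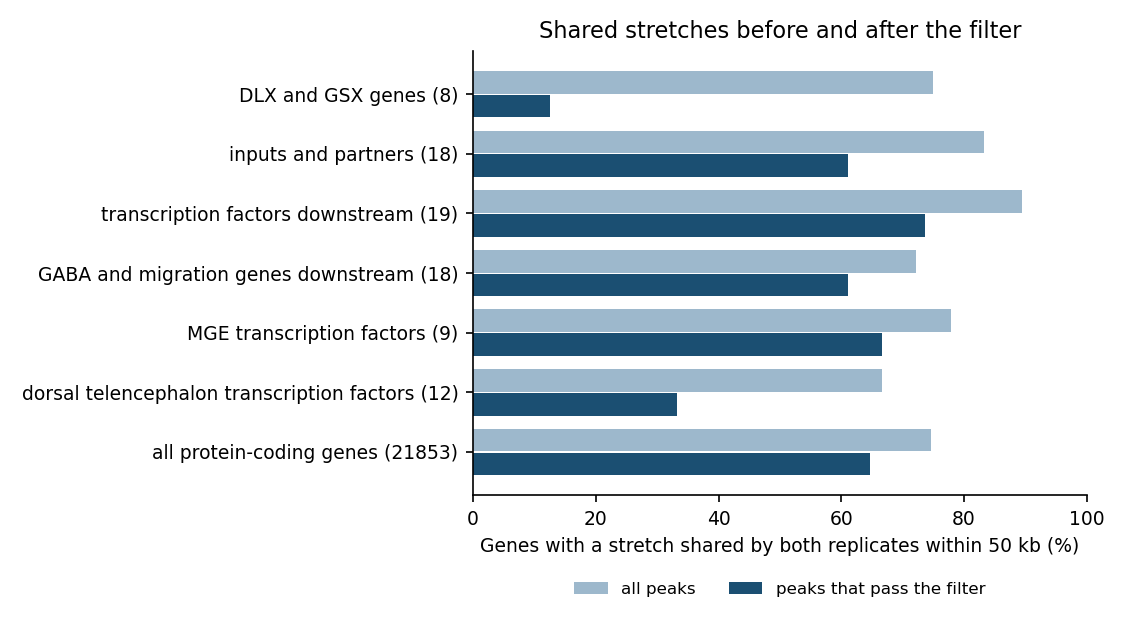
Share of genes with a shared stretch within 50 kb (x axis, percent) in each list, with the number of genes in parentheses, for all deposited peaks (light bars) and for peaks that pass the filter (dark bars). The DLX and GSX genes go from 75% to 12.5%, and all protein-coding genes from 74.6% to 64.7%.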

How the data were processed

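CUT&RUN peaks were analysed for 2 Foxr2 p53LOF and 2 V5 control libraries, grouped by the sample labels. The authors trimmed reads with Trimmomatic 0.39, aligned them to mm10 with BWA 0.7.17, removed duplicates with Picard 2.26.6 and called peaks per library with MACS2 2.2.7.1 in GenPipes, with no input library named (HOMER 4.11 is also listed). The deposited fold (a ratio), −log10 p and −log10 q of each peak come from MACS2, and the deposited score is a whole-number form of the −log10 q.

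Fold and p together gave each library's background: the value, from peaks of fold up to 30, at which 100% of them hold whole fragments (within 0.02). Read totals are not part of a peak list, and precision was judged from the fragments at the summit. Genes were taken from GENCODE release M21 on GRCm38, with coordinates from 1. Python 3.11.15, numpy 2.4.6, scipy 1.17.1, pysam 0.24.0 and matplotlib 3.10.9 were used. The recovery of the background, the shared stretches and the overlap counts were tested on simulated data, and the other steps were not.

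Peak numbers were compared between groups by an exact two-sided permutation test, called at 0.05, and all other counts were set beside all protein-coding genes or all peaks without a test. Named genes are the 8 members, genes whose start lay in or nearest to their peaks, the 3 genes with the highest lower fold in each list, and those with no peak. Gad1, Gad2, Nkx2-1, Pdk2 and Tac4 fall outside this rule and were added after their values were seen. The members and lists were chosen with earlier results of these data known. Alternatives changed the region, the minimum on peaks, the overlap, the position counted, the promoter window, the pairing and the libraries included. RNA and chromatin accessibility data were not used here. Results for some single genes and 1 region are counted but not reported singly here.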

Additional observations from a re-analysis of the deposited data

How the results depend on the processing

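The 12 shared stretches were 6 within 10 kb of the genes, 19 within 100 kb, 6 where the overlap had to span at least 50% of both peaks, and 1 after the filter in the methods. Of all 24807 shared stretches, 11947 were left after that filter. Of the 6 genes with a shared stretch, 1 (Gsx1) was left after the filter, under which 64.7% of all protein-coding genes had one. With the stricter overlap 2 (Gsx1 and Gsx2) were left, and 71.1% of all protein-coding genes still had one. The 4 genes with a promoter stretch fell to 1 (Gsx1) after the filter, and the share of all genes with a filtered promoter stretch is not given here. Within 100 kb 8 of 8 genes had a shared stretch, as did 80.7% of all genes. Using a single replicate in place of both gave 6 to 8 genes and 4 to 5 genes with a promoter peak. It gave 51 to 53 of the network genes (lists of 18, 19 and 18) in place of 45. Of all protein-coding genes, 78.0% had a peak within 50 kb in replicate 2 alone and 77.5% in replicate 1 alone. Without replicate 2, Dlx3 and Dlx4 joined the count. For the network genes the other settings gave 36 after the filter, 39 within 10 kb, 45 with a −log10 q above 2 and 49 within 100 kb. The shares of all protein-coding genes at these settings were 64.7%, 62.5%, 74.6% and 80.7%. The difference in peak number from the control was 2.5 to 29 peaks with other regions and minimums, and 15 to 19 when 1 library was left out. With the replicate block it was 17 at an exact permutation p of 0.5, the smallest that 2 pairs allow. The sources do not say whether equal replicate numbers mark a shared batch, so the block says nothing about the size of the effect. Few fragments (8 to 26 at the shared summits) limit every fold given here.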
